A study of Homo sapiens with 6 samples.

Results

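The 9 genes described here encode the enzymes of de novo serine synthesis (PHGDH, PSAT1 and PSPH) and of the folate one-carbon cycle that takes carbon from serine (SHMT1, SHMT2, MTHFD1, MTHFD2, MTHFD1L and ALDH1L2). They were chosen by their known enzymatic role, though with earlier results of these data known. They are 9 of the 60662 genes with a value. All 9 reached the 0.5 TPM in 3 or more libraries that was asked of a gene to be tested. TPM is a transcript level normalized for transcript length and library total. The libraries came from HCT116, an established human colorectal carcinoma cell line, grown in McCoy's 5a medium with fetal bovine serum. Cells of the shCtrl group (3 libraries) carried a non-target shRNA delivered by lentivirus, and cells of the GMDS-AS1 KD group (3 libraries) carried shRNA 2 against the long non-coding RNA GMDS-AS1, so both groups were stably transduced. Each group stands for 1 shRNA construct, and apart from the word biological in the labels nothing states that the 3 libraries came from separate transductions, so the p-values measure the spread between these samples only.

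De novo serine synthesis starts from the glycolytic intermediate 3-phosphoglycerate. PHGDH oxidizes it, PSAT1 transfers an amino group from glutamate, and PSPH removes the phosphate to give serine. The serine hydroxymethyltransferases, SHMT1 in the cytosol and SHMT2 in mitochondria, then move a carbon from serine to tetrahydrofolate and release glycine. In mitochondria MTHFD2 and MTHFD1L carry this carbon on to formate, which leaves for the cytosol, where MTHFD1 returns it to folate for the synthesis of purines and thymidylate. The pathway is known to be active in proliferating cells, and ATF4, a transcription factor of the amino acid and stress response, is known to activate many of its genes.

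The enzymes did not move as a block. The 3 enzymes of serine synthesis and the mitochondrial enzymes MTHFD2 and ALDH1L2 were lower in the GMDS-AS1 KD libraries, PHGDH by 2.75-fold and PSAT1 by 2.85-fold. ALDH1L2 passed the filter through its shCtrl values alone, which fixed its direction and its lack of overlap as deposited. The cytosolic enzyme MTHFD1 was higher by 1.47-fold, and was called higher under each of the 3 scalings tried. Both serine hydroxymethyltransferases and MTHFD1L lay close to the common shift between the libraries, and their calls turned on the scaling. Summed over the 9 genes, the level as deposited, without scaling, was 1296 ± 26.8 TPM in shCtrl and 714 ± 2.43 TPM in GMDS-AS1 KD (SD, n = 3). No library of one group lay inside the range of the other. Also as deposited, the 3 serine synthesis genes together went from 487 ± 16.1 TPM to 155 ± 1.80 TPM. SHMT1 and SHMT2 together went from 287 ± 3.32 TPM to 233 ± 4.84 TPM (SD, n = 3). These sums include the common shift between the libraries, which the fold changes above do not.

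The fit that gives the fold changes was made with limma on log2(TPM + 1) over all 16901 genes that passed the filter, after scaling by the trimmed mean of M-values (TMM), with Benjamini-Hochberg adjustment over all of them. On this scale the fold change of a lowly expressed gene comes out too small. TMM set the KD libraries against the shCtrl libraries by a log2 difference of -0.25 in their factors, and without this scaling the median log2 fold change of all genes was -0.20. The share of TPM in ribosomal protein genes moved with the groups, at most 21.97% in shCtrl and at least 23.8% in GMDS-AS1 KD. Mitochondrially encoded genes held 15.2% to 16.4% and 15.6% to 16.6%. Of 10 colon epithelial markers, 7 had a mean above 0.5 TPM in each group, among them EPCAM, whereas CDX1 was listed at 0 in every library. Their summed level was 9173 to 9623 TPM in shCtrl and 3446 to 3549 TPM in GMDS-AS1 KD, largely from the keratins KRT8 and KRT18, and the part of this difference in the results below was not tested. The summed markers of leukocytes (5 genes, PTPRC at 0 in all libraries) and of endothelium (4 genes) reached at most 2.03 and 1.13 TPM, and those of fibroblasts (5 genes) lay at 10.2 to 15.0 TPM, nearly all of it COL1A1. GMDS-AS1 itself, listed as GMDS-DT, had 1.66, 2.21 and 1.34 TPM in shCtrl and 0.88, 0.91 and 0.79 TPM in GMDS-AS1 KD (log2 fold change -0.41, limma adjusted p = 0.0412). That call was lost when any single library other than shCtrl 3 was left out (adjusted p up to 0.118), so the check of the knockdown in these libraries rests on low values.

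PHGDH, which catalyses the first and committed step of serine synthesis, had 195, 181 and 183 TPM in shCtrl and 56.7, 54.3 and 58.5 TPM in GMDS-AS1 KD. The lowest shCtrl library was thus far above the highest KD library. Its log2 fold change was -1.46 ± 0.039 (SE, limma adjusted p = 8.41e-07), a 2.75-fold lower level, with a 95% interval from -1.55 to -1.36. In order of log2 fold change it was the 201st largest fall among the 16901 genes. The gene (ENSG00000092621) lies on chr1:119648411-119744226 of GRCh38, plus strand.

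PSAT1, the aminotransferase of the second step, fell slightly further than PHGDH. Its level was 254, 240 and 241 TPM in shCtrl and 71.6, 73.6 and 70.3 TPM in GMDS-AS1 KD. The log2 fold change of -1.51 ± 0.037 (SE, limma adjusted p = 7.02e-07) is a 2.85-fold lower level and the 170th largest fall of all genes tested. PSAT1 (ENSG00000135069) is on chr9:78297143-78330093, plus strand.

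PSPH, the phosphatase that ends the pathway, changed less than the enzymes before it. It had 56.0, 58.9 and 51.4 TPM in shCtrl against 27.2, 28.6 and 24.2 TPM in GMDS-AS1 KD, without overlap. The log2 fold change was -0.79 ± 0.077 (SE, limma adjusted p = 0.000169), or 1.72-fold lower. In both groups library 3 gave the lowest PSPH value. Within a library, the ratio of PHGDH to PSPH was 3.07 to 3.56 in shCtrl and 1.90 to 2.41 in GMDS-AS1 KD, and that of PSAT1 to PSPH was 4.08 to 4.70 and 2.58 to 2.90. PSPH (ENSG00000146733, chr7:56011051-56051604, minus strand) shares 6.10% of its 50-base words with other transcripts, the most of the 9 genes, and 2.30% with the pseudogene PSPHP1. PSPHP1 was listed at 13.8 to 17.5 TPM in shCtrl and 15.5 to 17.9 TPM in GMDS-AS1 KD, so reads could be split between these copies, and the values of the pseudogene overlapped between the groups. Shared words made up 4.62% for PSAT1, 3.72% for MTHFD1, 2.68% for MTHFD2 and 2.33% for SHMT1, and were 0 for PHGDH and SHMT2. The pseudogenes named after these enzymes other than PSPHP1 were listed at no more than 0.17 TPM in any library.

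**Figure D1:**
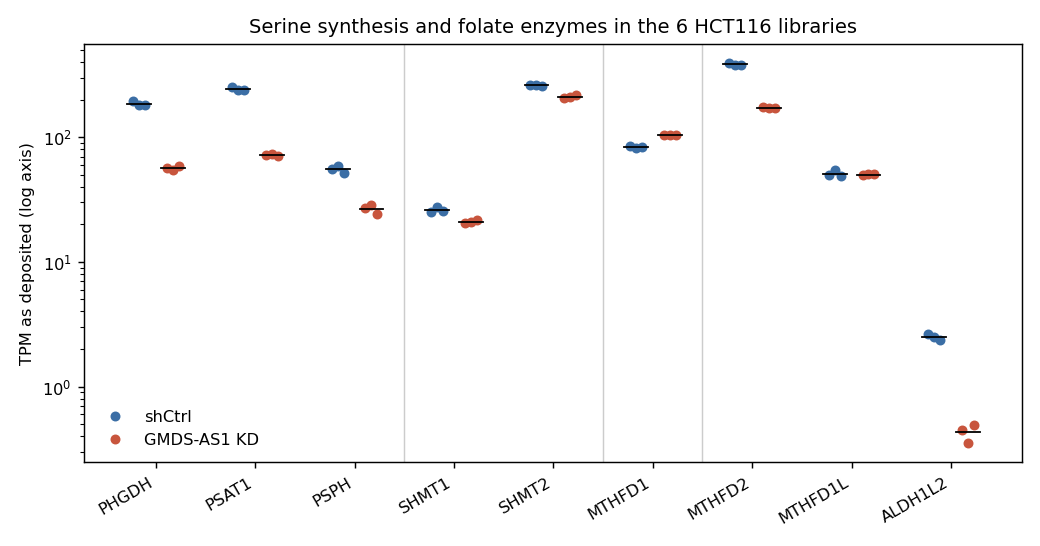
TPM as deposited (log axis) of the 9 genes in the 3 shCtrl libraries (blue) and the 3 GMDS-AS1 KD libraries (red), with group means as black lines and gray lines between the enzyme roles. All KD libraries lie below all shCtrl libraries for PHGDH, PSAT1, PSPH, MTHFD2 and ALDH1L2 (fixed by the filter for ALDH1L2). The same holds, by less, for SHMT1 and SHMT2 (scaled SHMT1 overlaps). MTHFD1 lies higher in the KD libraries, and MTHFD1L overlaps.

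SHMT2, the mitochondrial hydroxymethyltransferase, was the second most abundant of the 9 transcripts in shCtrl. Its deposited values were 264, 261 and 258 TPM in shCtrl and 207, 212 and 216 TPM in GMDS-AS1 KD, so every KD library was below every shCtrl library. After TMM scaling the ranges came close, 237 to 241 and 226 to 234 TPM, still without overlap. The log2 fold change was then -0.05 with a 95% interval from -0.11 to 0.0085 (limma adjusted p = 0.128). With TPM as deposited it was -0.30 (adjusted p = 0.000105), with upper-quartile scaling -0.15 (adjusted p = 0.00257), and with a filter of 1 TPM in every library -0.098 (adjusted p = 0.0127), each of them past the threshold.

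SHMT1, the cytosolic paralog, was much less abundant, with 25.2, 27.8 and 25.8 TPM in shCtrl and 20.7, 20.8 and 21.6 TPM in GMDS-AS1 KD. Scaled values overlapped between the groups, and the log2 fold change was -0.06 with a 95% interval from -0.18 to 0.053 (limma adjusted p = 0.310). As deposited it was -0.30 (adjusted p = 0.00240) and with upper-quartile scaling -0.16 (adjusted p = 0.0304), both past the threshold. A ratio within a library needs no scaling between libraries. The SHMT2 to SHMT1 ratio was 9.40 to 10.5 in shCtrl and 10.0 to 10.2 in GMDS-AS1 KD, with overlapping ranges and a difference in log2 ratio of 0.0045 (two-sided exact permutation p = 0.9). SHMT2 (ENSG00000182199) lies on chr12:57229327-57234935, plus strand, and SHMT1 (ENSG00000176974) on chr17:18327860-18363563, minus strand.

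MTHFD2, a dehydrogenase and cyclohydrolase of mitochondria, was the most abundant of the 9 transcripts in shCtrl at 394, 382 and 378 TPM. In GMDS-AS1 KD it had 173, 170 and 171 TPM, with less spread than in shCtrl and no overlap. The log2 fold change was -0.91 ± 0.024 (SE, limma adjusted p = 8.65e-07), a 1.88-fold lower level. MTHFD2 (ENSG00000065911) is on chr2:74198562-74217565, plus strand. Its paralog MTHFD2L, which can catalyse the same mitochondrial step, had 6.77, 6.71 and 9.15 TPM in shCtrl and 7.95, 7.46 and 8.01 TPM in GMDS-AS1 KD. For MTHFD2L the groups overlapped and the log2 fold change was 0.28 (limma adjusted p = 0.0985), though without the library shCtrl 3 it was 0.40 (adjusted p = 0.00711).

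MTHFD1, the cytosolic enzyme that joins the synthetase, cyclohydrolase and dehydrogenase activities in 1 protein, went the other way. It had 84.2, 82.7 and 84.2 TPM in shCtrl and 105, 103 and 104 TPM in GMDS-AS1 KD, and no library overlapped. The log2 fold change was 0.56 ± 0.029 (SE, limma adjusted p = 9.44e-06), and with TPM as deposited it was 0.31, still past the threshold. The ratio of MTHFD2 to MTHFD1 within a library was therefore 4.49 to 4.67 in shCtrl and 1.65 to 1.66 in GMDS-AS1 KD, a difference of -1.47 in log2 ratio. MTHFD1 (ENSG00000100714) lies on chr14:64388031-64463457, plus strand.

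MTHFD1L, the mitochondrial formyltetrahydrofolate synthetase that releases formate, had 49.7, 54.7 and 48.6 TPM in shCtrl and 49.4, 50.7 and 50.5 TPM in GMDS-AS1 KD. As deposited the values overlapped, and its direction depended on the scaling. With TMM scaling the log2 fold change was 0.22 ± 0.048 (SE, limma adjusted p = 0.00669). With upper-quartile scaling it was 0.13 (adjusted p = 0.0606), and with TPM as deposited -0.021 (adjusted p = 0.745). Relative to MTHFD1 in the same library it was lower, at 0.577 to 0.662 of the MTHFD1 level in shCtrl and 0.472 to 0.491 in GMDS-AS1 KD. MTHFD1L (ENSG00000120254) is on chr6:150865549-151101887, plus strand.

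ALDH1L2, which oxidizes mitochondrial formyltetrahydrofolate, was the least abundant of the 9 transcripts, with 2.62, 2.48 and 2.37 TPM in shCtrl and 0.45, 0.35 and 0.49 TPM in GMDS-AS1 KD. The deposited means differed 5.79-fold. The log2 fold change was -1.16 ± 0.10 (SE, limma adjusted p = 0.000106) with a pseudocount of 1 and -2.08 with a pseudocount of 0.1. All KD libraries lay under 0.5 TPM, so ALDH1L2 entered the fit through its shCtrl values alone. The filter thus fixed that its deposited values do not overlap, though not the size of the difference. Leaving out any shCtrl library removes it from the fit. The gene (ENSG00000136010, chr12:105019784-105084577, minus strand) overlaps C12orf45 on the opposite strand, which was listed at 9.51 TPM in shCtrl and 9.62 TPM in GMDS-AS1 KD. Whether the library kept strand is not stated, so reads of this pair may not be separable. The same limit holds for MTHFD1 and ZBTB25 (7.05 and 4.52 TPM) and for SHMT1 and SMCR8 (7.06 and 6.51 TPM), where the partner was the less abundant gene. The cytosolic paralog ALDH1L1, at 0.17 to 0.73 TPM over the 6 libraries, did not pass the filter.

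**Figure D2:**
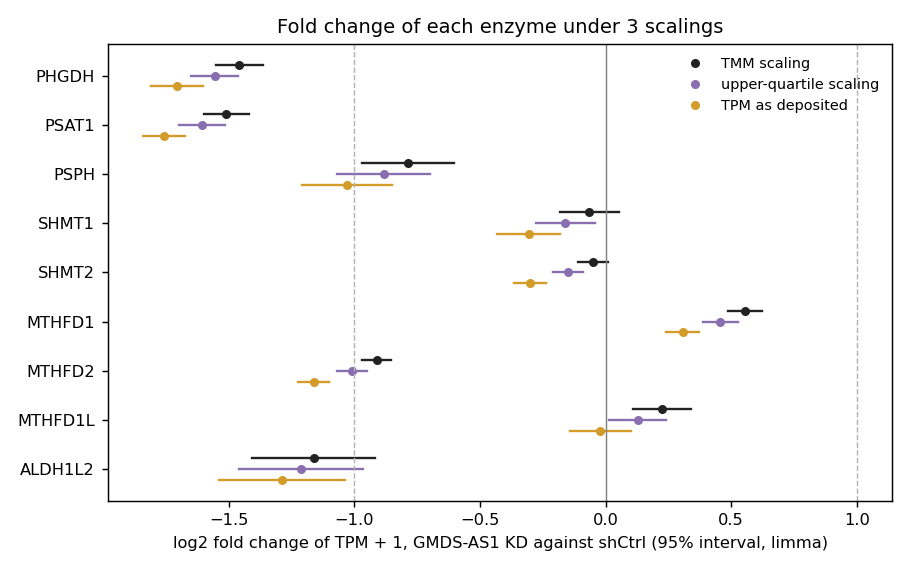
Log2 fold change of TPM + 1 (GMDS-AS1 KD against shCtrl) with its 95% interval from limma, under TMM scaling (black), upper-quartile scaling (purple) and as deposited (yellow); dashed lines mark 2-fold. PHGDH, PSAT1, PSPH, MTHFD2 and ALDH1L2 lie below 0 and MTHFD1 above 0 under each scaling, whereas MTHFD1L changes sign (0.22 under TMM, -0.021 as deposited) and the intervals of SHMT1 and SHMT2 cross 0 under TMM only.

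Counted over the list, 5 of the 9 genes were lower at an adjusted p under 0.05, where 25.8% of all genes tested were, and 2 were higher, where 28.7% of all genes were. PHGDH, PSAT1 and ALDH1L2 were lower by at least 2-fold, as were 4.21% of all genes, and none of the 9 was higher by 2-fold, as were 2.96% of all genes. One of the 5 and one of the 3 is ALDH1L2, and the other 8 genes were at or above 0.5 TPM in every library. The median log2 fold change of the 9, with ALDH1L2 included, was -0.79, beside 0.00063 for all genes. With TPM as deposited the split was 7 lower, where 40.3% of all genes were, and 1 higher, where 16.3% were, and 5 were lower by at least 2-fold, where 6.96% of all genes were, since PSPH and MTHFD2 then also passed that size. In the deposited TPM, 7 of the 9 genes had all KD libraries below all shCtrl libraries, as did 44.9% of all genes, and MTHFD1 alone had all above, as did 18.8%. In scaled TPM, 6 had all KD libraries below (30.1% of all genes) and 2, MTHFD1 and MTHFD1L, had all above (31.9% of all genes). ALDH1L2 is also among the lower genes as deposited (7, and 5 by 2-fold) and among the 7 and 6 with all KD libraries below. With its KD values all under 0.5 TPM, the filter fixed its lack of overlap in the deposited TPM.

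**Figure D3:**
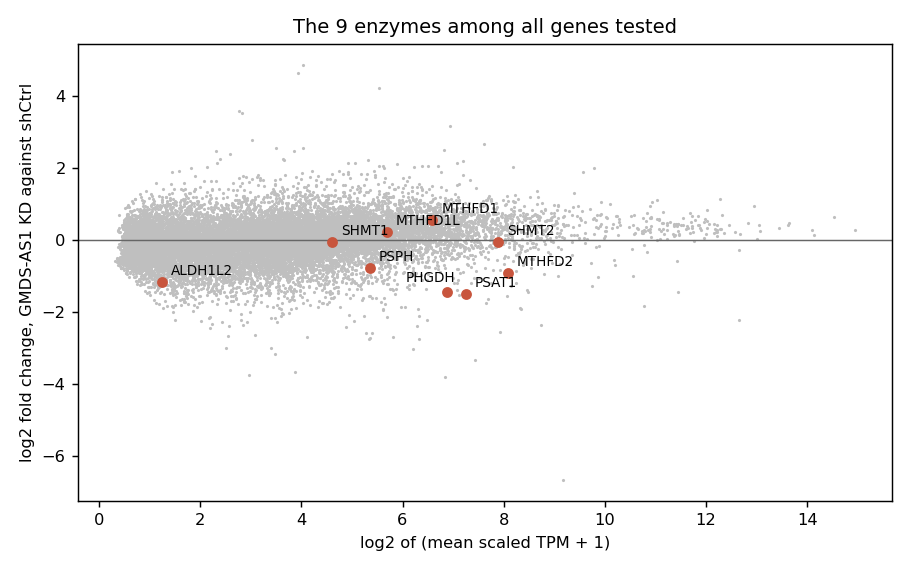
Log2 fold change (GMDS-AS1 KD against shCtrl, TMM scaling) against log2 of the mean scaled TPM + 1 for the 16901 genes tested (gray), with the 9 enzymes in red. PSAT1 and PHGDH lie well below most abundant genes (-1.51 and -1.46), MTHFD2 lies below 0 at the highest level of the 9, and SHMT1 and SHMT2 lie near 0.

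The order of the 9 transcripts by deposited TPM differed between the groups. In shCtrl it ran MTHFD2, SHMT2, PSAT1, PHGDH, MTHFD1, PSPH, MTHFD1L, SHMT1 and ALDH1L2, and only the neighbours PSPH and MTHFD1L overlapped in their library values. In GMDS-AS1 KD, SHMT2 came first, followed by MTHFD2 and MTHFD1, ahead of PSAT1 and PHGDH, and no neighbours overlapped. PSPH fell behind MTHFD1L, at 24.2 to 28.6 TPM against 49.4 to 50.7 TPM. By mean deposited TPM among the genes tested, PHGDH was at percentile 96.6 in shCtrl and 88.1 in GMDS-AS1 KD, MTHFD2 at 98.3 and 96.3, and ALDH1L2 at 25.1 and 4.96.

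Of the 6 ratios compared within libraries, 5 had ranges that did not overlap between the groups. Lack of overlap was common for single genes in scaled TPM (30.1% of all genes below, 31.9% above). Its share among ratios of other gene pairs was not counted, so the count of 5 is given as a description only. A ratio also carries the differences of its single genes given above. Each of the 5 ratios without overlap reached a two-sided exact permutation p of 0.1, the smallest that 3 against 3 libraries allow. After Benjamini-Hochberg adjustment over the 6 pairs it was 0.12, so none could pass 0.05. Beside the ratios given above, MTHFD2 to MTHFD2L was 41.4 to 58.2 in shCtrl and 21.4 to 22.8 in GMDS-AS1 KD, a difference of -1.22 in log2 ratio. The differences in log2 ratio were -0.67 for PHGDH to PSPH, -0.73 for PSAT1 to PSPH and -0.33 for MTHFD1L to MTHFD1. The SHMT2 to SHMT1 ratio was the pair whose ranges overlapped.

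**Figure D4:**
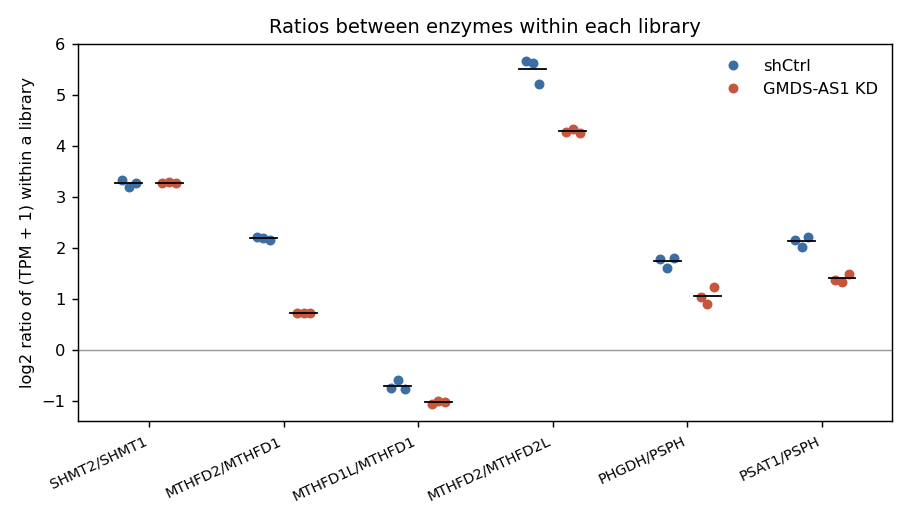
Log2 ratio of (TPM + 1) of 6 pairs of enzymes within each library, for shCtrl (blue) and GMDS-AS1 KD (red), with group means as black lines. MTHFD2 to MTHFD1 moves from a mean of 2.19 to 0.72 with hardly any spread in the KD libraries, whereas SHMT2 to SHMT1 stays at a mean of 3.27 in both groups.

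Genes next to the 9 enzymes in the same metabolism, 54 in 8 roles, were read from the same fit. Of these, 48 were tested, 14 were lower, 12 were higher and 22 did not pass, and the median log2 fold change was -0.013. The 14 are 29.2% of those tested and the 12 are 25%, close to the 25.8% lower and 28.7% higher of all genes. With TPM as deposited, 27 were lower and 7 higher, where 40.3% and 16.3% of all genes were. The counts by role below are of 4 to 7 genes each and are given as a description beside the same shares of all genes. As deposited, other folate enzymes were 3 lower and 0 higher, purine synthesis 4 and 2, and other serine users 5 and 1. Lower by at least 2-fold were 4 genes, SLC1A4, SLC1A5, GGH and SPTLC1. Higher by at least 2-fold was SLC25A32 with TMM scaling only, its log2 fold change being 0.83 as deposited.

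Among 7 genes of serine transport, 4 were lower and 2 higher. SLC1A4, a neutral amino acid exchanger that carries serine, had 8.45, 9.04 and 8.67 TPM in shCtrl and 0.89, 0.70 and 0.77 TPM in GMDS-AS1 KD, so its deposited means differed 11.1-fold. Its log2 fold change of -2.28 (limma adjusted p = 2.9e-06) was the 28th largest fall of all genes tested. SLC1A5, a related exchanger best known for glutamine, had 243 to 255 TPM in shCtrl and 98.8 to 102 TPM in GMDS-AS1 KD (log2 fold change -1.05, limma adjusted p = 7.67e-07). The mitochondrial serine carrier SFXN1 had a log2 fold change of 0.39 (limma adjusted p = 0.00537) with TMM scaling. It did not pass as deposited (0.14, adjusted p = 0.134). Listed in the same role, SFXN3 was at 0.88 (limma adjusted p = 7.05e-06) with TMM scaling and 0.64 as deposited (adjusted p = 4.79e-05). SFXN2 did not pass under either (0.24, adjusted p = 0.329 with TMM scaling). These SFXN genes were named after their values were seen.

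Among 7 genes of folate uptake, reduction and retention, 3 were lower and 2 higher. GGH, the hydrolase that shortens the polyglutamate tail of folates, had 50.8 to 53.3 TPM in shCtrl and 19.5 to 22.3 TPM in GMDS-AS1 KD (log2 fold change -1.03, limma adjusted p = 1.17e-05). SLC25A32, the mitochondrial folate carrier, had 19.5 to 21.0 TPM and 35.9 to 38.2 TPM (log2 fold change 1.07, limma adjusted p = 3.32e-06). Of 6 other folate enzymes tested, MTHFS (methenyltetrahydrofolate synthetase) was the 1 that passed, at -0.69 (limma adjusted p = 0.00576). Within the glycine cleavage system, 1 of 4 genes was lower and 1 higher. The lower one was GLDC, its decarboxylase, with 8.31, 5.55 and 5.94 TPM in shCtrl and 2.74, 4.29 and 3.06 TPM in GMDS-AS1 KD (log2 fold change -0.59, limma adjusted p = 0.0314). That call did not hold without shCtrl 1, shCtrl 3, KD 1 or KD 3, with adjusted p between 0.0502 and 0.0909.

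Genes that use one-carbon units or serine were read next. For purine synthesis, 1 of 6 genes was lower and 2 higher, ADSL most at 0.50 (limma adjusted p = 8.47e-05). In the methionine cycle none of the 7 genes tested was lower and 3 were higher with TMM scaling, whereas 3 were lower and 1 higher as deposited. The 1 that was higher under both scalings was AHCY, the hydrolase of S-adenosylhomocysteine, with 201 to 214 TPM in shCtrl and 272 to 284 TPM in GMDS-AS1 KD (log2 fold change 0.68, limma adjusted p = 4.97e-06). Of 5 genes of transsulfuration and glutathione synthesis, 2 were lower and 1 higher, and CTH, which makes cysteine from cystathionine, went from 12.4 to 13.3 TPM down to 5.22 to 6.58 TPM (log2 fold change -0.77, limma adjusted p = 0.000302). Among 6 other serine users tested, 2 were lower and 1 higher. SPTLC1, a subunit of the enzyme that joins serine to palmitoyl-CoA for sphingolipids, had 53.0 to 53.7 TPM in shCtrl and 19.3 to 22.2 TPM in GMDS-AS1 KD (log2 fold change -1.08, limma adjusted p = 6.56e-06).

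**Figure D5:**
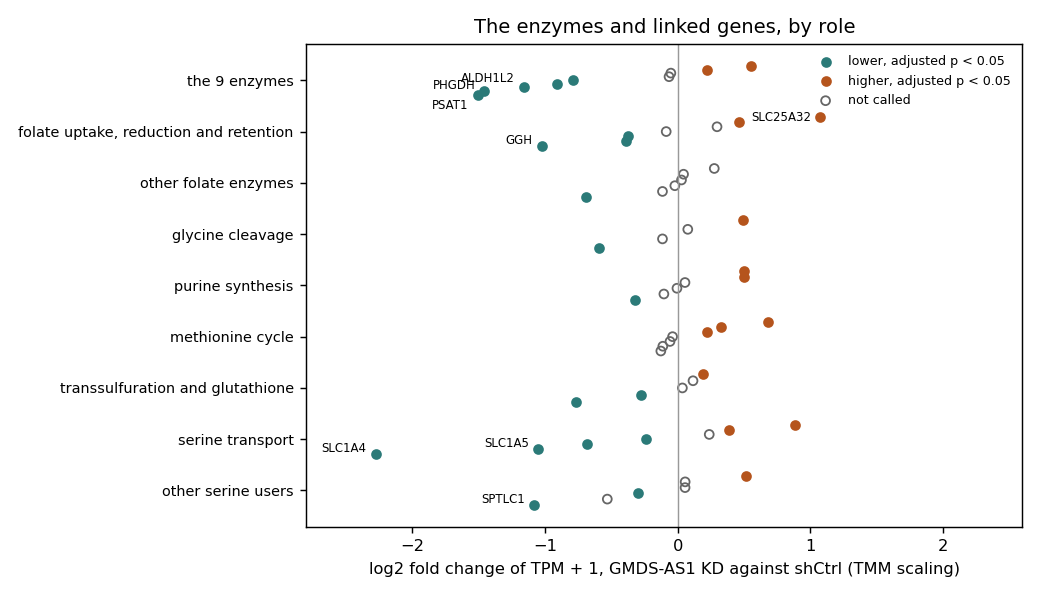
Log2 fold change of TPM + 1 (GMDS-AS1 KD against shCtrl, TMM scaling) of the 9 enzymes and of the 48 linked genes tested, in rows by role, with filled points for genes at an adjusted p under 0.05 and names for those changed by at least 2-fold. Points lie on both sides of 0 in most rows, with SLC1A4 (-2.28) farthest to the left and SLC25A32 (1.07, under 2-fold as deposited) farthest to the right.

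Transcription factors known to act on these genes also differed. ATF4 had 747, 740 and 726 TPM in shCtrl and 387, 386 and 398 TPM in GMDS-AS1 KD (log2 fold change -0.67, limma adjusted p = 1.22e-06). NFE2L2, the factor of the antioxidant response, had 84.3, 85.2 and 85.4 TPM and 47.7, 46.4 and 45.4 TPM (log2 fold change -0.61, limma adjusted p = 1.47e-05). MYC, a factor of growth and proliferation, had 355, 368 and 346 TPM and 405, 397 and 403 TPM (log2 fold change 0.42, limma adjusted p = 1.44e-05). The part of these factors in the levels of the 9 enzymes was not tested.

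Promoters of 6 of the 9 genes (PHGDH, PSAT1, SHMT1, MTHFD1, MTHFD2 and MTHFD1L) were found in RefSeq (GRCh38.p14), with 1 start taken per gene. For MTHFD1, MTHFD1L and MTHFD2 the GENCODE spans given above begin before that start. The promoters ran from 250 bases before to 50 bases after the RefSeq start. They were searched on both strands for the letters TGATGNAA, bound by ATF4 with a partner, which 3.67% of 27305 promoters hold, for the E-box CACGTG, bound by MYC, which 7.43% hold, and for TGACNNNGC, bound by NFE2L2, which 13.6% hold. The 4 windows below are all the matches found in the 6 promoters, with the match in capitals.
MTHFD1L ATF4-type letters: ccgccggctcTGATGCAAtcgcgccggg
MTHFD1L E-box: cgcccggctcCACGTGcgcagccggc
MTHFD1 E-box: agtccctaagCACGTGggttgggttg
MTHFD2 NFE2L2-type letters: ttccctcccgGCGCAGTCAccggcgcggt
The first lies on chr6:150866347-150866374, 129 bases before the RefSeq start, the second on chr6:150866322-150866347, 154 bases before it, and the third on chr14:64388328-64388353, 15 bases before the start of MTHFD1, all on the plus strand. The fourth lies on chr2:74198611-74198639, 6 bases after the start of MTHFD2, and is printed on the plus strand, with the letters read on the minus strand. TGATGNAA was found in 1 of the 6 promoters, CACGTG in 2 and TGACNNNGC in 1, MTHFD2. None of these letters was in the windows of PHGDH, PSAT1 or SHMT1, which says nothing of sites outside these windows or of a factor's binding.

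Outside these lists, likeness to the mean of PHGDH, PSAT1 and PSPH over the 6 libraries was measured on log2(TMM-scaled TPM + 1). The closest genes were PPP6C (Pearson's r = 0.9997), SELENOS, GLO1, B4GALT6 and CD55 (0.9996 each). Their means are given as deposited. GLO1, the glyoxalase that clears methylglyoxal, had means of 150 TPM in shCtrl and 18.1 TPM in GMDS-AS1 KD. PPP6C, a protein phosphatase subunit, went from 16.7 to 6.84 TPM, and SELENOS, a selenoprotein of the endoplasmic reticulum, from 59.3 to 21.2 TPM. The means of CD55, which protects cells from complement, were 55.6 and 21.9 TPM, and those of B4GALT6, a glycosyltransferase, 4.57 and 1.12 TPM. The 6 libraries form 2 groups, so such an r largely restates a difference between groups, and 664 genes had an r above 0.99.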

How the data were processed

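Poly-A RNA of 6 HCT116 libraries (3 shCtrl, 3 GMDS-AS1 KD) was sequenced in read pairs. The authors deposited TPM per Ensembl gene, rounded and not scaled further between libraries. The submitters' processing notes name Trimmomatic 0.27, TopHat2 2.1.1 and GRCh38.p13, and the methods name Cufflinks, RSEM and, for their own comparison, DESeq2. The annotation release and strand setting are not given in the sources used here. Since TPM drops the number of reads, depth is unknown and no counting error is given. A value was read for 60662 genes, and 2 genes with broken lines were left out. No columns were identical.

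The 16901 genes at or above 0.5 TPM in 3 or more libraries were tested. TMM factors (30% of log ratios and 5% of mean values trimmed, unweighted) were computed on them, and log2(TPM + 1) was modelled in R 4.3.3 (limma 3.58.1), taking the trend of variance on level into account, without a block. Called genes had a Benjamini-Hochberg adjusted p under 0.05, and 2-fold calls also a log2 fold change beyond 1. Ratios within libraries were compared by two-sided exact permutation tests. The fit was tested on simulated data without a common shift between the groups, so that test does not cover the choice of scaling. Python 3.11.15, pandas 2.3.3 and scipy 1.17.1 were used.

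Positions, overlaps and 50-base words came from GENCODE v29 (GRCh38), and promoters from RefSeq. The members and lists were chosen with earlier results of these data known. Named were all members, the GMDS-AS1 transcript, 3 transcription factors, linked genes called at 2-fold or with the largest change of their role, the paralogs MTHFD2L and ALDH1L1, and the 5 genes most alike in pattern. GMDS, also under this rule, had a log2 fold change of -0.77 (limma adjusted p = 0.00638). SFXN1, SFXN2 and SFXN3 were named outside this rule. Alternatives covered scaling, pseudocount, filter, variance trend, replicate block and leaving out each library.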

Additional observations from a re-analysis of the deposited data

How the results depend on the processing

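Under the alternatives for scaling, pseudocount, filter, variance trend, block and left-out libraries, PHGDH, PSAT1, PSPH and MTHFD2 stayed lower and MTHFD1 higher, each past the threshold. ALDH1L2 stayed lower wherever it was tested, with the limit given above. Scaling moved the calls of SHMT1, SHMT2 and MTHFD1L, and the filter also moved that of SHMT2. With TPM as deposited, 1 of the 9 enzymes was higher, as were 16.3% of all genes. By at least 2-fold, 5 were lower, as were 6.96% of all genes. SHMT1 (-0.30, adjusted p = 0.00240) and SHMT2 (-0.30, 0.000105) were then called lower, and MTHFD1L reversed to -0.021 (0.745). Of the linked genes, 27 were then lower (40.3% of all genes were), 7 higher (16.3% of all genes) and 0 higher by 2-fold. With upper-quartile scaling, 7 enzymes were lower, 4 of them by at least 2-fold, and 1 was higher. Linked genes were then lower in 20, higher in 11 and higher by 2-fold in 0. The shares of all genes called under this scaling were not counted, so these counts are given as a description only. The median log2 fold change of all genes under this scaling was -0.077. SHMT1 was then at -0.16 (0.0304), SHMT2 at -0.15 (0.00257) and MTHFD1L at 0.13 (0.0606). With a filter of 1 TPM in every library, SHMT2 was at -0.098 (0.0127), and ALDH1L2 was not tested.

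Leaving out 1 library at a time gave 4 to 5 enzymes lower, 2 to 3 lower by 2-fold and 2 higher, the lower counts coming from each shCtrl library, without which ALDH1L2 failed the filter. MTHFD1L ranged from 0.18 to 0.25 (adjusted p 0.00366 to 0.0347). The SHMT2 to SHMT1 difference ranged from -0.036 to 0.042 in log2 ratio, and was -0.0019 without KD 2. Linked genes were lower in 13 to 16 and higher in 12. The shares of all genes called in these fits were not counted, so these counts too are a description only. All these p-values are from limma.

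The replicate numbers share only a number: correlations of same-numbered deviations were 0.029, -0.038 and 0.014, and 2 of 6 libraries correlated best with their own number. The replicate block gave 8640 calls among all genes in place of 9199. It changed no call among the 9 enzymes, but GMDS-DT went to an adjusted p of 0.0523 and GLDC to 0.0709. Without a filter, GMDS-DT was at 0.15 and GLDC at 0.0946.

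The unknown depth limits what can be said of ALDH1L2, GMDS-DT and other genes near or under 1 TPM, and with 1 shRNA per group, effects of the construct and of the knockdown cannot be told apart.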
